A study of Mus musculus with 8 samples.

Results

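The genes described are 40 listed genes of the extracellular matrix other than collagens: matrix glycoproteins, proteoglycans, elastic fibre components and the enzymes that crosslink them. They were chosen by name and fall into 7 classes by role, and the whole array annotation names 19057 genes. Of the 40 genes, 36 had at least 1 probe named for them, and 31 were measured above background on enough arrays to be compared (detection p under 0.01 on at least 4 of the 8 arrays). Fbn1, Fbn2, Efemp2 and Loxl2 were not named by the annotation used here. Fbln5, Mfap5, Postn, Thbs1 and Loxl3 had probes that did not pass the detection filter.

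Expression was measured on single-colour Illumina MouseWG-6 v2 bead arrays in cells of the mouse embryonic gut at E12.5, on the mixed strain background C57BL/6J;129. All samples were sorted by FACS for EGFP driven by the regulatory elements of the Bapx1 locus, a gate that selects cells in which that locus was active. Markers of other cells were nevertheless present, as given below with the array signals. Bapx1, now named Nkx3-2, is a homeobox gene whose protein acts in the mesenchyme of the gut. The 4 wildtype samples came from embryos that kept an intact Bapx1 coding region, with EGFP placed behind it in the 3′ UTR through an internal ribosome entry site on 1 targeted allele as the study writes the genotype. The 4 Bapx1 null samples were homozygous for an allele in which EGFP follows the start codon and replaces the first part of the coding region. The number of EGFP alleles therefore differed between the genotypes, and its effect on the sorting gate was not tested. The study calls the 4 samples of each genotype biological replicates, without stating in the sources used here how many embryos each held.

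The matrix surrounds mesenchymal cells and gives the gut wall its shape and elasticity. Elastic fibres form when elastin is laid on a scaffold of fibrillin microfibrils, with fibulins, EMILINs and microfibril-associated proteins binding at their surface, and lysyl oxidases then crosslink the elastin. Small leucine-rich proteoglycans such as decorin and lumican bind fibrillar collagens and set their diameter. Matricellular proteins such as tenascins, thrombospondins and CCN proteins signal to cells more than they carry load. Fibronectin forms the early provisional matrix, versican and hyaluronan form a hydrated pericellular gel, and nidogens, perlecan and agrin belong to basement membranes. At E12.5 the gut mesenchyme is laying down its first smooth muscle layer.

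Promoters of the listed genes were searched for the letters of the Bapx1 binding motif, TAAGTG or TGAGTG, on both strands, in RefSeq windows that run from 250 bases before to 50 bases after each annotated start (GRCm38.p6). RefSeq windows were matched by symbol for 24 of the 40 genes, with 33 starts. Ccn2, Mfap4, Dcn and Fn1, the genes whose genotypes do not overlap, are among the 16 that were not matched. The motif occurred in 5 of these 33 windows (15.2%), against 7850 of 32851 windows (23.9%) over all genes. The matches lay at Tnc, Fmod, Agrn and Efemp2. Those of the 3 measured genes are printed here, because these are the genes at which an expression value and a promoter match can be set side by side. Each is printed 5′ to 3′ on the strand of its gene, with the motif, or its reverse complement CACTCA, in capitals.
Tnc, chr4:64047079-64047106, minus strand, 80 or 159 bases before the 2 annotated starts: cgcgcctggagTGAGTGcgtctttcatg
Fmod, chr1:134037039-134037066, plus strand, 204 bases before the start: gcatgctctccCACTCActagtctgaca
Fmod, chr1:134037089-134037116, plus strand, 154 bases before the start: gccaagaaagaTAAGTGcagactcccgg
Agrn, chr4:156186244-156186271, minus strand, 1 base before the start: ccctcgcccctCACTCActgccccagcc
These 3 genes had differences of -0.92, 0.20 and 0.28 between the genotypes on the log2 scale, and none of the 3 passed the test described below. Distances are those of the first base of each match as printed, so the match at Agrn runs across its annotated start. A match describes the letters only, and binding at these sites was not measured in these data.

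The arrays differed in signal. Wildtype arrays detected at least 38.2% of probes and Bapx1 null arrays 31.0% to 38.5%, and Bapx1 null replicate 2 was the dimmest, with a 75th percentile of raw intensity of 91.3 against 160.7 to 249.2 on the other 7 arrays. Across genes, the median correlation between arrays of 1 genotype was 0.988 for wildtype and 0.957 for Bapx1 null. The probe for Bapx1 stayed at background in all 4 wildtype samples (4.47 ± 0.03, SD, n = 4) and gave 6.94 ± 0.49 in Bapx1 null, at least 2.88-fold higher (limma, adjusted p = 0.0063). This runs opposite to what the genotype names would give for the intact transcript. The place of the probe relative to the deleted bases was not analysed here, so it does not check the labels, and every direction below is that of the libraries labelled Bapx1 null against the libraries labelled wildtype. Of 8 marker lists of cells outside the gut mesenchyme, smooth muscle aside, 5 had no measured gene higher in Bapx1 null. All 5 measured of 13 platelet genes were lower (list mean 7.26 to 9.64 on wildtype arrays, 5.30 to 5.96 on Bapx1 null arrays), as were all 7 measured of 14 fetal hepatocyte genes (6.24 to 10.14 and 5.15 to 6.06), all 10 measured of 15 macrophage and leukocyte genes (6.79 to 7.57 and 5.38 to 6.83) all 6 measured of 12 erythroid genes (7.35 to 8.77 and 5.31 to 7.15) and all 5 measured of 15 gut epithelium genes (6.78 to 7.56 and 6.29 to 6.68). The macrophage and leukocyte means overlapped between the genotypes at their edge. Those of the other 3 lists overlapped as well, with 4 of 8 measured enteric neural crest genes lower (7.41 to 7.84 and 7.10 to 7.81), 5 of 7 endothelial genes (6.40 to 7.20 and 6.06 to 7.08) and 5 of 6 mesothelium genes (8.03 to 9.17 and 7.79 to 8.76). Of 16 genes of the gut mesenchyme, in which Bapx1 is known to act, 15 were measured and 13 of them were detected on all arrays, the exceptions being Bapx1 itself and Prrx1. Without Bapx1 the list mean was 9.96 to 10.31 in wildtype against 10.01 to 10.23 in Bapx1 null.

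Of the 31 measured matrix genes, Ccn2 rose in Bapx1 null and none fell, at an adjusted p of 0.05 over all 9784 genes tested. Among all genes 78 passed (0.797%), of which 53 rose (0.542%) and 25 fell (0.256%), a split that became 1 and 44 when the arrays were not normalized to each other. At an unadjusted p under 0.05, 10 matrix genes passed (26.9% of all genes did), 7 higher and 3 lower, against 17.2% and 9.62% of all genes. After normalization the genotypes did not overlap for 4 matrix genes. Ccn2, Mfap4 and Dcn lay above wildtype on every Bapx1 null array (12.2% of all genes did so) and Fn1 below it (6.36%). Before normalization the intensities of Mfap4 overlapped (809.4 to 1306.5 in wildtype, 1103.3 to 1347.5 in Bapx1 null). Those of Dcn overlapped as well (1873.6 to 2889.3 and 2106.2 to 7411.3), and those of Fn1 did not (851.0 to 1748.9 and 88.0 to 690.5). Differences, given throughout in log2 units as Bapx1 null minus wildtype, ran from -1.60 for Fn1 to 1.02 for Tnxb. Their median was 0.20, against 0.07 over all genes. In sign, 19 matrix genes were above 0 (57.2% of all genes were) and 12 below, and this split became 7 and 24 without normalization, 14 and 17 in the processed table and 28 and 3 under the scaling that the methods describe. These scalings moved the median of all genes to -0.45, -0.25 and 1.05, and relative to that median the matrix genes had a median of 0.13 here and between 0.19 and 0.54 under those 3 scalings and cyclic loess. The counts are thus close to the background shares, and the 1 gene that passed the test is too few to compare with its share. Because each array holds RNA of many cells, fewer cells of a type and less RNA per cell cannot be told apart.

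**Figure D1:**
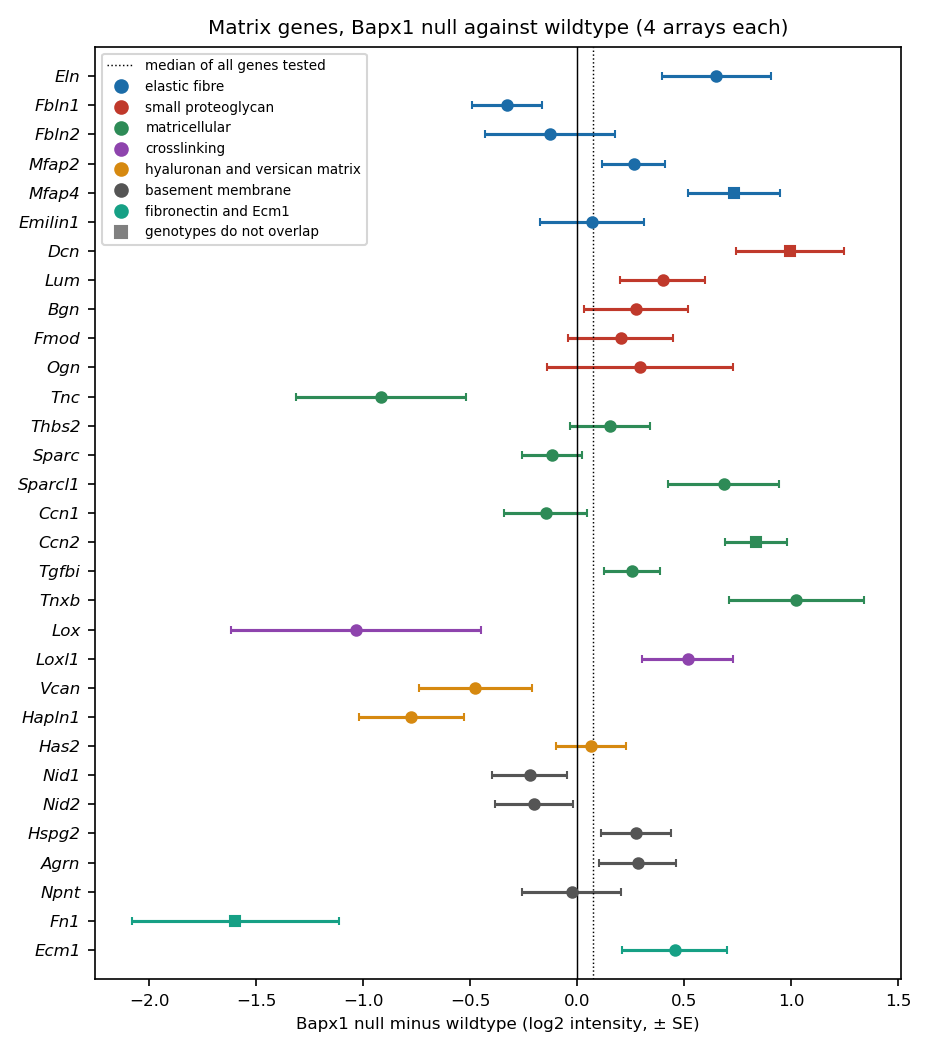
Difference between the genotypes for each of the 31 measured matrix genes, grouped and coloured by class. The x axis is Bapx1 null minus wildtype in log2 intensity, points are the estimates of the limma fit on 4 arrays per genotype, bars are ± SE, squares mark the 4 genes whose genotypes do not overlap after normalization, and the dotted line is the median of all genes, 0.07. Fn1 lies farthest below 0 at -1.60 and Tnxb farthest above it at 1.02, and only Ccn2 passed the test. Signs of genes near 0 depend on the scaling.

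Ccn2 encodes connective tissue growth factor, a secreted matricellular protein that binds integrins and growth factors and is induced by TGF-beta and by mechanical load through YAP. It gave 9.57, 9.53, 9.50 and 9.80 on the 4 wildtype arrays and 10.19, 10.58, 10.33 and 10.64 on the 4 Bapx1 null arrays. Every Bapx1 null array exceeded every wildtype array. The difference was 0.83 ± 0.15 (SE), a 1.78-fold higher signal (limma, adjusted p = 0.038). The second probe for Ccn2 gave a difference of 0.52, and its genotypes overlapped. Bapx1 null replicate 2 was at 9.29 on it, within the 9.12 to 9.36 of wildtype. In a limma fit over all 14901 kept probes of a single gene its adjusted p was 0.15, and that of the first probe was 0.051. The deposited intensities of the first probe before any normalization overlapped, at 746.3 to 1090.0 in wildtype against 755.1 to 1842.8 in Bapx1 null. The difference stayed positive under all 23 alternatives that were run, and it passed the threshold under 8 of them. Those that changed only the filter, added the replicate block or used an ordinary analysis of variance could not change its direction. It no longer passed when any one of the 4 wildtype arrays was left out (adjusted p from 0.081 to 0.14), nor without Bapx1 null replicate 2 (0.052) or replicate 3 (0.098). Of all genes, 0.0409% to 0.317% passed in the fits without a wildtype array, against 0.797% with all arrays. Without Bapx1 null replicate 2 the share was 0.797%, and without replicate 3 it was 0.0613%. Smooth muscle genes were compared on the same arrays. Of 22 listed, 19 were measured and 15 of them lay higher in Bapx1 null (57.2% of all genes did), 2 past the threshold, against 0.542% of all genes (Tagln, by 1.01 from a probe detected on 1 wildtype and 3 Bapx1 null arrays, and Itga5, by 1.03), with list means of 9.78 to 10.18 on wildtype arrays and 10.39 to 10.87 on Bapx1 null arrays. None of the 19 was below background throughout a genotype. The part of smooth muscle cells in the Ccn2 result was not tested.

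**Figure D2:**
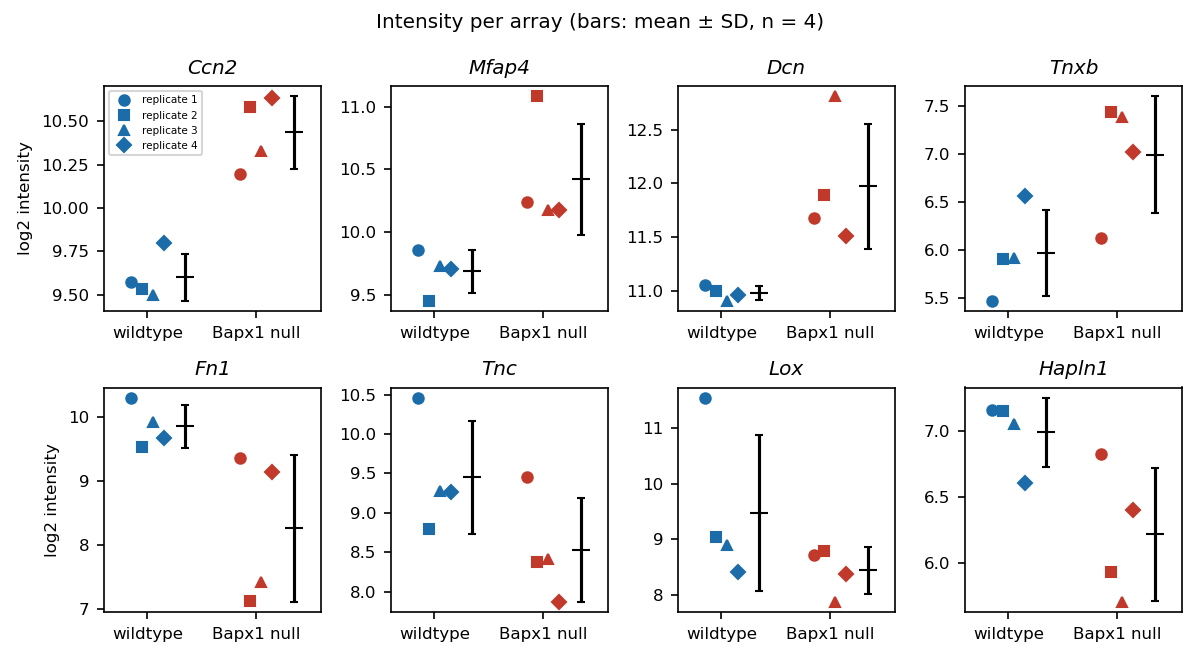
Log2 intensity after normalization on each array for 8 matrix genes, with wildtype in blue and Bapx1 null in red, marker shape for the replicate number, and mean ± SD (n = 4) beside each group. Y axes differ between panels and do not start at 0. Ccn2, Mfap4 and Dcn are higher on all Bapx1 null arrays and Fn1 is lower, whereas the lower mean of Lox in Bapx1 null goes with wildtype replicate 1, at 11.54. Replicate numbers do not pair samples.

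The other matricellular genes went in both directions. Of the 10 listed, 8 were measured, 5 above 0 and 3 below, with a median of 0.20 that became -0.26 without normalization. Tnxb, the largest tenascin, which in adult tissue binds collagen fibrils, gave 5.48, 5.91, 5.92 and 6.57 in wildtype against 6.12, 7.44, 7.39 and 7.02 in Bapx1 null. Its difference was 1.02 ± 0.32 (SE), and Bapx1 null replicate 1 lay within the wildtype range (adjusted p = 0.12). Tnc, the tenascin of embryonic mesenchyme and of healing tissue, gave 10.46, 8.79, 9.28 and 9.27 in wildtype against 9.46, 8.37, 8.42 and 7.88 in Bapx1 null. It lay 0.92 lower (adjusted p = 0.18), with 1.11 lower on its second probe. Wildtype replicate 1 held its highest value, and without that array the difference was -0.58 (adjusted p = 0.36). Sparcl1, an antiadhesive relative of SPARC, was at 9.83 to 10.11 in wildtype and at 10.33, 10.04, 11.10 and 11.23 in Bapx1 null, a difference of 0.68 ± 0.26 (SE) carried by replicates 3 and 4 (adjusted p = 0.15). Tgfbi, a secreted integrin ligand induced by TGF-beta, gave 12.86, 13.12, 12.87 and 12.90 in wildtype against 13.25, 13.01, 13.34 and 13.17 in Bapx1 null. It differed by 0.26 with this probe and by -0.16 with the other. Ccn1, another secreted CCN protein, differed by -0.15, and its 3 probes ran from -0.51 to -0.15. Without Bapx1 null replicate 2 it differed by 0.051, and its sign turned under 5 of the 23 alternatives. Thbs2, an inhibitor of vessel growth, and Sparc, a calcium-binding collagen chaperone, differed by 0.15 and -0.12. The Postn probe that came closest to the filter was detected on 3 wildtype arrays and on no Bapx1 null array, and its unfiltered values ran from 5.33 to 6.08 and from 4.72 to 5.43.

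All 5 small leucine-rich proteoglycans lay higher in Bapx1 null, and none of the 5 passed the test. Their median difference was 0.29, and they ran from 0.20 to 0.99. Without normalization 4 of the 5 fell below 0 and 1 did in the processed table, yet relative to the median of all genes all 5 stayed higher under each scaling except the one the methods describe, under which 4 did. Dcn, decorin, which binds collagen and sequesters TGF-beta, gave 11.05, 10.996, 10.91 and 10.96 in wildtype against 11.68, 11.89, 12.81 and 11.51 in Bapx1 null. The wildtype arrays were close to each other and Bapx1 null replicate 3 was well above the rest. The difference was 0.99 ± 0.25 (SE), a 1.99-fold higher signal with an adjusted p of 0.091, and the other 2 kept probes gave 0.41 and 1.21. On the probe at 0.41 the genotypes overlapped. The probe at 1.21 was near background and was detected on 2 wildtype arrays only. Without Bapx1 null replicate 3 the difference of the first probe was 0.71 (adjusted p = 0.10), and without replicate 4 it was 1.15 and passed the threshold (adjusted p = 0.039), in a fit in which 12.3% of all genes did. Lum, lumican, which limits the growth of collagen fibrils, differed by 0.40 on 1 probe and 0.55 on the other, with 9.57 to 10.21 in wildtype against 10.04 to 10.76 in Bapx1 null. Bgn, biglycan, the close relative of decorin, differed by 0.27. Fmod, fibromodulin, was near background, detected on 3 arrays of each genotype, at 5.38, 5.55, 5.49 and 5.79 in wildtype against 5.78, 5.12, 6.42 and 5.71 in Bapx1 null. It differed by 0.20, or by -0.02 without Bapx1 null replicate 3. Ogn, osteoglycin, gave 11.28, 9.99, 9.46 and 8.92 in wildtype against 9.74, 10.58, 10.09 and 10.41 in Bapx1 null. Its wildtype arrays spread far more than the difference of 0.29, and its 3 probes ran from -0.26 to 0.29. Without wildtype replicate 4 it was -0.039, and its sign turned under 5 of the 23 alternatives.

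Of 11 elastic fibre genes 6 were measured, 4 above 0 and 2 below, with a median of 0.17 that became -0.29 without normalization and -0.14 in the processed table. None passed the test. Mfap4, a microfibril-associated protein that binds elastin and collagen, gave 9.86, 9.45, 9.73 and 9.71 in wildtype against 10.24, 11.08, 10.18 and 10.18 in Bapx1 null. After normalization the genotypes did not overlap, and 3 of the 4 Bapx1 null arrays lay close together while replicate 2 stood above them. The difference was 0.73 ± 0.22 (SE, adjusted p = 0.11), and 0.51 without that replicate (adjusted p = 0.097). Eln, tropoelastin itself, gave 8.67, 7.996, 8.50 and 7.88 in wildtype against 8.56, 9.25, 9.34 and 8.50 in Bapx1 null, a difference of 0.65 ± 0.25 (SE, adjusted p = 0.15) to which replicates 2 and 3 contributed most. Mfap2, a glycoprotein of fibrillin microfibrils, gave 12.58, 12.39, 12.53 and 12.504 in wildtype against 12.47, 12.86, 13.04 and 12.69 in Bapx1 null. It differed by 0.26, with 3 probes between 0.19 and 0.33, and by -0.08 without normalization. Emilin1, which sits between elastin and microfibrils, differed by 0.07, or by -0.096 without Bapx1 null replicate 4 and -0.026 without replicate 3. Both measured fibulins had differences below 0, which for Fbln2 depends on the arrays. Fbln1, a fibulin bound to fibronectin and elastic fibres, gave 12.09, 11.75, 11.70 and 11.57 in wildtype against 11.59, 11.22, 11.67 and 11.32 in Bapx1 null, a difference of -0.33 that was positive under the scaling of the methods, and its 5 probes ran from -0.55 to 0.01. Fbln2 differed by -0.13, with the second probe at -0.53, and by 0.18 without Bapx1 null replicate 4 or 0.015 without wildtype replicate 1. Probes for Fbln5 were at background on all arrays, and Mfap5 was detected on wildtype replicate 1 alone.

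The 2 measured crosslinking enzymes pointed in opposite directions. Loxl1, the lysyl oxidase tied to elastin renewal, gave 11.20, 11.02, 11.13 and 11.10 in wildtype against 11.59, 12.04, 11.90 and 10.997 in Bapx1 null. Its first 3 Bapx1 null arrays lay above all wildtype arrays and the last below them. The difference was 0.51 ± 0.21 (SE, adjusted p = 0.17), and 0.73 with an adjusted p of 0.038 without Bapx1 null replicate 4, where 12.3% of all genes passed. Lox, which crosslinks both collagen and elastin, gave 11.54, 9.05, 8.90 and 8.42 in wildtype against 8.73, 8.80, 7.87 and 8.38 in Bapx1 null. The difference of -1.03 ± 0.58 (SE, adjusted p = 0.26) rested on wildtype replicate 1, since without it the value was -0.35 (adjusted p = 0.45). Loxl3 was not detected on any array.

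Fn1, fibronectin, had the lowest difference of the list. It gave 10.30, 9.53, 9.92 and 9.68 in wildtype against 9.36, 7.12, 7.42 and 9.14 in Bapx1 null. All Bapx1 null arrays were below all wildtype arrays, but replicates 1 and 4 came close to the lowest wildtype array, whereas replicates 2 and 3 lay far below it. The difference was -1.60 ± 0.48 (SE), a 3.03-fold lower signal, with an adjusted p of 0.12. A second kept probe gave -1.89, with 8.81 to 9.68 in wildtype against 7.998, 5.03, 7.22 and 8.71 in Bapx1 null. The direction held under all 23 alternatives, among them those that could not change it. The difference ran from -2.18 to -0.61, the latter without Bapx1 null replicates 2 and 3. Without replicate 4 it passed the threshold (-1.89, adjusted p = 0.043), in a fit in which 12.3% of all genes did. The platelet, hepatocyte and macrophage lists were lower on average in Bapx1 null, as given above, and their part in the Fn1 value was not tested. Ecm1, a glycoprotein that binds perlecan and fibulins, gave 8.63, 7.94, 8.23 and 7.81 in wildtype against 8.16, 8.88, 9.05 and 8.33 in Bapx1 null. It differed by 0.45, or by -0.13 without normalization.

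Vcan, Hapln1 and Has2 build the hyaluronan gel. Relative to the median of all genes the 3 lay lower under every scaling, although Has2 itself was at 0.06 and Vcan turned to 0.87 under the scaling of the methods. Hapln1, the link protein that locks versican onto hyaluronan, gave 7.16, 7.15, 7.05 and 6.61 in wildtype against 6.83, 5.94, 5.71 and 6.40 in Bapx1 null. Only Bapx1 null replicate 1 lay within the wildtype range, and 1 Bapx1 null array was not above background. The difference was -0.78 ± 0.25 (SE, adjusted p = 0.12). Vcan, the large chondroitin sulfate proteoglycan, gave 10.76, 9.90, 10.12 and 9.73 in wildtype against 9.80, 9.05, 9.74 and 10.00 in Bapx1 null, a difference of -0.48 (adjusted p = 0.25). Its 5 kept probes ran from -1.62 to 0.46, so that its direction depends on the probe. The probe at -1.62 was detected on 2 Bapx1 null arrays only, and replicates 2 and 3 were at 4.54 and 5.15 on it. Has2, the main embryonic hyaluronan synthase, gave 8.64, 8.37, 8.39 and 8.15 in wildtype against 8.78, 8.37, 8.19 and 8.48 in Bapx1 null.

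Basement membrane genes had differences between -0.22 and 0.28. The 5 listed were all measured and none reached an unadjusted p under 0.05. Nid1 and Nid2, the nidogens that link laminin to collagen IV, differed by -0.22 and -0.20. Nid1 gave 10.61, 10.28, 10.15 and 9.85 in wildtype against 10.03, 10.07, 9.77 and 10.14 in Bapx1 null, with 0.35 on its second probe. Hspg2, perlecan, and Agrn, agrin, both heparan sulfate proteoglycans, differed by 0.27 and 0.28. Agrn gave 13.00, 13.12, 12.94 and 13.15 in wildtype against 13.17, 13.81, 13.36 and 13.00 in Bapx1 null, with only replicates 2 and 3 clearly above wildtype. Before normalization Bapx1 null replicate 2 was at 7176.3, below the 7554.4 to 10663.8 of wildtype. Without that array the Agrn difference was 0.12. Npnt, nephronectin, an integrin ligand, was detected on 2 arrays of each genotype and differed by -0.03, or by 0.19 without Bapx1 null replicate 2 and 0.072 without wildtype replicate 3.

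Different probes of a gene did not always give the same sign. Of 15 matrix genes with more than 1 kept probe, 9 had all probes on the same side of 0 and 6 did not. All probes of Dcn, Lum, Mfap2, Ccn2 and Hspg2 were above 0 and all probes of Fn1, Tnc, Ccn1 and Fbln2 below it. Fbln1, Ogn, Sparc, Tgfbi, Vcan and Nid1 were mixed. Where probes lie in the transcripts was not analysed here.

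**Figure D3:**
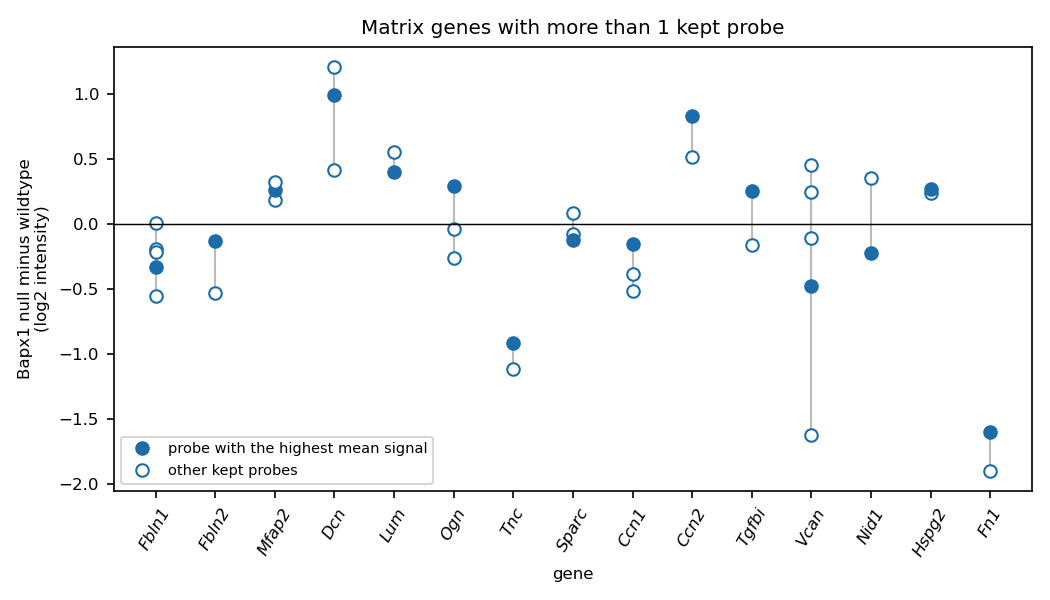
Difference between the genotypes for every kept probe of the 15 matrix genes with more than 1. The y axis is Bapx1 null minus wildtype in log2 intensity after quantile normalization, filled points are the probe with the highest mean signal, used for the gene, and open points are the others. The 2 probes of Fn1 lie at -1.60 and -1.89, the 3 of Dcn between 0.41 and 1.21, and the 5 of Vcan between -1.62 and 0.46.

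The spread among samples was wider for the matrix genes than for all genes in both genotypes. The median SD over the 4 wildtype arrays was 0.21 for the matrix genes and 0.14 for all genes, and over the Bapx1 null arrays 0.41 and 0.33. Wildtype replicate 1 was the highest wildtype array for 21 of the 31 genes (67.7%), against 22.1% of all genes, and wildtype replicate 4 the lowest for 16 (51.6%), against 19.4%. The mean over the 31 genes was 9.87 on wildtype replicate 1 and 9.41 to 9.52 on the other 3, and the Bapx1 null arrays lay between, at 9.59 to 9.73. Lox, Tnc and Ogn contributed most. With wildtype replicate 1 left out, 20 genes were above 0 and 11 below, the median was 0.23, and the differences of Lox, Tnc and Vcan shrank to -0.35, -0.58 and -0.27, whereas that of Ogn grew to 0.75. None of the 31 genes passed the threshold in that fit, in which 0.0409% of all genes did.

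**Figure D4:**
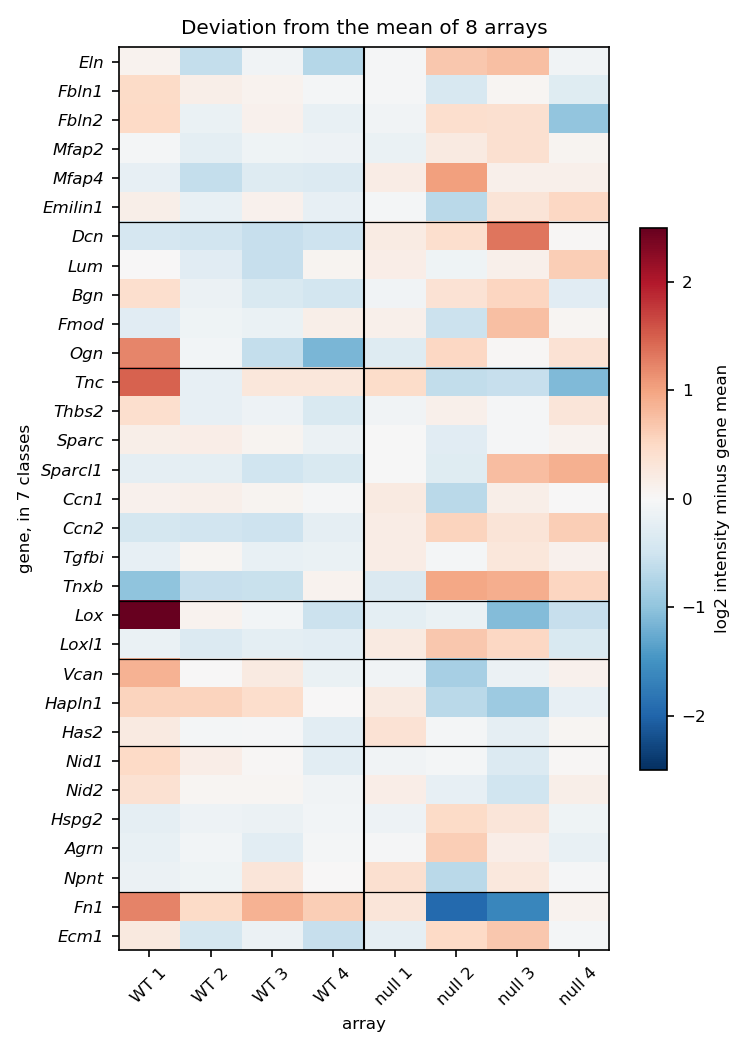
Log2 intensity of each measured matrix gene on each array minus the gene's mean over the 8 arrays, with genes in rows by class and arrays in columns (WT is wildtype, null is Bapx1 null). Red is above and blue below the mean of the gene. The column of wildtype replicate 1 is red for Lox, Tnc, Ogn, Fn1 and Vcan, and Fn1 is bluest on Bapx1 null replicates 2 and 3.

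A wider list of 91 other matrix genes (relatives of the genes above, latent TGF-beta binding proteins, matrilins, glypicans and syndecans among them, without collagens) had 45 measured, 24 above 0 and 21 below, with a median of 0.09. None passed the threshold with limma, 11 were higher and 8 lower at an unadjusted p under 0.05 (17.2% and 9.62% of all genes), and the genotypes did not overlap for 10 with Bapx1 null above and 6 with it below (12.2% and 6.36% of all genes). The highest were Srpx2, a secreted sushi-repeat protein, by 1.16 (adjusted p = 0.088), and Prelp, a further leucine-rich proteoglycan, by 0.91 (adjusted p = 0.086). Gpc6, a cell-surface glypican, lay 1.09 lower (adjusted p = 0.065), at 8.31 to 8.99 in wildtype against 7.07 to 8.11 in Bapx1 null. Vwf, the von Willebrand factor of endothelium and platelets, was detected on all wildtype arrays and on no Bapx1 null array, at least 1.65-fold lower (adjusted p = 0.062). Its wildtype values were 6.94, 5.97, 5.67 and 7.46, where the platelet list means were 9.46, 8.50, 7.26 and 9.64. The part of platelets in the Vwf value was not tested. The list means of endothelial genes, which Vwf also marks, are given above.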

How the data were processed

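The authors deposited linear intensity values per probe from GenomeStudio, neither background subtracted nor normalized (lowest value 29.8). The deposited detection column is a score that rises with signal, and 1 minus it was taken as the detection p. A processed table that the authors deposited holds log2 values, equal to the log2 intensity minus the array median and minus a baseline per probe, with column medians of -0.0112 to 0.0145. What that baseline was taken over is unknown. It shows neither the background subtraction nor the scaling that the methods describe. The tables were joined on array differences over 45281 rows (largest distance 5.32e-06, closest competing row 0.0209), and probes were named from the platform annotation (1 symbol for 34885, several for 18, unnamed here 10378). Symbols were compared with a RefSeq table of GRCm38.p6, which did not cover 78 probes.

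Intensities were corrected with nec of limma 3.58.1 (offset 16, R 4.3.3), quantile normalized and log2 transformed. Probes with a detection p under 0.01 on at least 4 of 8 arrays were kept (17440, of which 14901 had a single gene), and each of 9784 genes took the kept probe of highest mean signal. Genotypes were compared with lmFit and eBayes, two-sided, with Benjamini-Hochberg adjustment over all 9784 genes and a threshold of 0.05. A probe below background throughout a genotype is given as "at least", against the lowest detected signal per array or its own value where higher. With 4 arrays per genotype, their number limits the precision, and p-values set each difference against the spread between these samples. The fit was tested on simulated data with known differences.

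The genes, classes and other lists were chosen with earlier results of these data known, so they lend no independent support. Values per array are given for genes past the threshold, genes whose genotypes do not overlap, and, in each class, the genes with the highest and lowest difference and the highest mean signal. Values of Sparcl1, Eln, Ogn, Lum and Postn are given outside that rule and were chosen after they were seen, as were Twist1 and Prrx1. Of the wider list, the 2 highest and 2 lowest are named. Replicate numbers are shared between the genotypes, but deviations of same-numbered samples correlated at 0.148, -0.173, -0.0556 and -0.136, so the numbers were not taken to pair samples. Alternatives changed the normalization, background correction, filter, probe choice, test, array weighting and samples.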

Additional observations from a re-analysis of the deposited data

Results flagged for a closer look

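In 2 of 62 groups of 4 arrays (31 genes in each genotype) 1 array stood apart from the other 3 by more than Dixon's 95% critical value, and chance alone gives such a result in about 1 group in 20. The first was Mfap4 in Bapx1 null, where replicate 2 was at 11.08 and the other arrays between 10.18 and 10.24, a gap of 0.929 of the range. That array also had the fewest detected probes, 31.0%. Its Mfap4 intensity before normalization was 1103.3, the lowest of the Bapx1 null arrays, which ran up to 1347.5. After normalization replicate 2 was the highest Bapx1 null array for 42.5% of all genes. The second was Tgfbi in wildtype, where replicate 2 was at 13.12 and the other arrays between 12.86 and 12.90, a gap of 0.858 of the range.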

How the results depend on the processing

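For 18 of the matrix genes and the 4 counts and medians above, 23 alternatives were run. Over all of them 418 values stayed the same, 45 moved, 22 reversed, 15 became weaker and 4 stronger. A gene stayed the same if it kept its direction and side of the threshold, and became weaker or stronger if it lost or gained the threshold. A count stayed the same if it changed little, and the median if it shifted by less than the SD of the list mean between arrays. Otherwise they moved. The count of matrix genes past the threshold, 1, became 0 without normalization between arrays, under median and MAD scaling, in the processed table, with the mean of the kept probes, with the kept probe of lowest signal, in the ordinary analysis of variance, with the share of detected probes as a covariate, without Bapx1 null replicates 2 and 3, and with the replicate block (Ccn2 adjusted p = 0.086). It became 2 with array weights (Ccn2 and Dcn, 0.78 with an adjusted p of 0.043), and ran from 0 to 4 when 1 array was left out. The 78 genes of the whole array became 45 without normalization (1 higher, 44 lower), 0 under MAD scaling (limma, 5067 at an unadjusted p under 0.05), 8 in the processed table (1 higher, 7 lower), 47 with an offset of 50, 49 without the filter, 4 in the ordinary analysis of variance, 202 with array weights, 2 with the covariate and 50 with the replicate block (25 higher, 25 lower), and from 4 to 1199 with 1 array left out, the highest without Bapx1 null replicate 4 and the lowest without wildtype replicate 1 or 4. The wider matrix count of 0 became 1 without normalization, without the filter, with the mean of the kept probes, with the lowest probe and without Bapx1 null replicates 2 and 3, and 2 with array weights, and ran from 0 to 8 with 1 array left out. The median difference of 0.20 became -0.20 without normalization, 1.59 under MAD scaling, -0.067 in the processed table and 0.068 with the mean of the kept probes, and ran from 0.051 (without wildtype replicate 4) to 0.23 with 1 array left out. The replicate block could not change the difference of any gene, since each replicate number holds 1 array of each genotype. The ordinary analysis of variance uses the same differences, so neither of these alternatives bears on direction.

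Of the 31 matrix genes 22 changed sign under at least 1 alternative, and 7 did so when 1 array was left out (Fbln2, Emilin1, Fmod, Ogn, Ccn1, Has2 and Npnt). For the 18 genes, directions reversed as follows. Under MAD scaling Fbln1 was 1.99, Tnc 0.12, Lox 0.077, Vcan 0.87 and Nid1 1.38, where the median of all genes was 1.05. Without normalization Mfap2 was -0.079, Fmod -0.20, Tgfbi -0.098, Has2 -0.54, Agrn -0.089 and Ecm1 -0.13, where it was -0.45. With the lowest probe Tgfbi was -0.16, Vcan 0.25 and Nid1 0.35, and with the mean of the probes Nid1 was 0.066. With the covariate Vcan was 0.018 and Agrn -0.072. Has2 was -0.021 with cyclic loess, -0.35 in the processed table, and from -0.045 (without Bapx1 null replicate 1) to 0.15 with 1 array left out, also below 0 without wildtype replicate 4 (-0.015), and Fmod ran from -0.018 (without Bapx1 null replicate 3) to 0.41 with 1 array left out. The cause was not tested. A fit with slide as a block was not run, since the column headers give no slides. Npnt, Fmod and Tnxb lay close to background, where a difference on the log2 scale is understated.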

Other observations

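Wildtype replicate 1, which held the highest wildtype value for 21 of the 31 matrix genes, also held that of 2 transcription factors in the gut mesenchyme list. These 2 were picked after their values were seen. Twist1 gave 10.17 on that array and 8.89, 9.41 and 8.17 on the other wildtype arrays. Prrx1 gave 8.53 there and 6.58, 7.20 and 5.498 on the others. The list as a whole did not share this. Of its 15 measured genes 5 had their highest wildtype value on that array (Twist1, Prrx1, Foxf2, Bmp4 and Osr1). Another 4 had their lowest there (Nkx2-3, Tcf21, Isl1 and Hoxa5). Without Bapx1 the list mean on that array was 10.28, within the 9.96 to 10.31 of wildtype. Smooth muscle genes had their lowest wildtype list mean on the same array, at 9.78 against 10.06 to 10.18.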
